A study of Mus musculus with 12 samples.

Results

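Transcripts of p53 and of its direct target genes were examined in whole hearts of 2 mouse models of LEMD2 deficiency. The set held 34 of the 24062 gene symbols in the deposited count table, namely Trp53, which encodes p53, its inhibitor Mdm4 and 32 genes that p53 is known to transcribe. Each was found by its symbol. The targets were divided by general knowledge of their regulation, with earlier results of these data already known, so a contrast between the classes is a description and not independent evidence. There were 23 damage-led targets, raised mainly when p53 is stabilized by DNA damage. Another 7, Cdkn1a, Btg2, Plk2, Plk3, Ier5, Epha2 and Pmaip1, are also induced by MAPK signaling or serum without p53. The remaining 2, Cd80 and Tnfrsf10b, have other known drivers.

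LEMD2 is a LEM domain protein of the inner nuclear membrane. The study asked which transcripts change when it is mutated or lost in the heart, and sequenced polyadenylated RNA from 3 mice per group, 1 library per mouse. The adult groups were 2-month-old mice, either Lemd2 WT or homozygous for the Lemd2 KI/KI allele (c.T38>G), a missense change carried by every cell of the body. The neonatal groups were collected at P1 (postnatal day 1). Floxed mice carried loxP sites around the first exon of Lemd2, and cKO mice carried the same allele together with a Myh6-Cre transgene. Myh6-Cre acts in cardiomyocytes (CMs), so the other cells of a cKO heart keep Lemd2. Both alleles were made in B6C3F1 zygotes, and the mosaic founders were then crossed to C57BL/6N. Age and the kind of allele changed together between the models and cannot be told apart. No group carried Myh6-Cre with an intact Lemd2 gene, so the transgene and the loss of Lemd2 cannot be told apart at P1.

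p53 is a transcription factor that cells keep scarce through MDM2, which marks it for degradation, and MDM4, which masks its activation domain. DNA damage frees p53 from both, mostly without a change in its own mRNA, and it then binds pairs of short half-sites near its targets, including Mdm2 itself. The targets halt the cell cycle, repair DNA, limit oxidative stress or start apoptosis. Several are also immediate early genes, switched on within minutes of growth factor, serum or stretch signals through ERK, CREB and serum response factor.

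The sequences below show matches to p53 half-sites and to a CREB motif in the promoters of genes that moved or did not move in these hearts. They come from RefSeq windows on GRCm38.p6, which run from 250 bases before to 50 bases after an annotated transcript start and were held for 26 of the 34 genes. No window was held for Trp53inp1, Zmat3, Perp, Pmaip1, Tnfrsf10b, Rrm2b, Xpc or Ddb2. The first 4 lines show the p53 half-site pair with the smallest spacer in the window. Capitals mark the 10-base half-sites, and lower case marks the spacer and flanks.
Cdkn1a: cagGAACATGTCTTGACATGTTCagc
Ccng1: gccAGACCTGCCCGGGCAAGCCTtgg
Bax: cccAGGCAAGCTTtGAACTTGCGGcaa
Cd80: tcaGAACAGGCCTGGACAAGTCAcct
The next 3 lines show the cAMP response element (CRE), written TGACGTCA, which CREB binds, with the motif in capitals.
Btg2: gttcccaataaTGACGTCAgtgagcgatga
Plk2: agcgctcgccgTGACGTCAcgaggccccgc
Epha2: cgtggtttcggTGACGTCAgcgcagggcat

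In order, these stretches lie at chr17:29090925-29090950 (plus strand), chr11:40755459-40755484 (minus), chr7:45467076-45467102 (minus) and chr16:38458819-38458844 (plus). The CRE stretches lie at chr1:134079303-134079332 (minus), chr13:110394971-110395000 (plus) and chr4:141301177-141301206 (plus). Each lies upstream of a transcript start, the Cdkn1a pair from base 51 before it and the Btg2 CRE from base 166. A p53 half-site pair with at most 2 mismatches over both half-sites and a spacer of 0 to 13 bases was present for 5 of 26 genes (19.2%), Cdkn1a, Ccng1, Bax, Sesn1 and Cd80, and for 4.71% of the 27025 genes with a window. The first half-site of the Cdkn1a pair also pairs across 12 bases with another upstream half-site with no mismatch, which only Cdkn1a showed among the 26 and 0.074% of all genes. The CRE was present for 3 of the 6 MAPK or serum targets with a window (50%), for 1 of the 17 damage-led targets (5.88%), Ppm1d, and for 2.03% of all genes. The CArG box of serum response factor was in none of the 26 and in 1.81% of all genes. All 3 motifs read the same on both strands and do not overlap one another in the stretches shown. A match is a description of these letters and not evidence of binding.

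All 34 genes passed the filter on low counts in both comparisons, with at least 13 counts in every library. Library totals ran from 37063669 to 44789753 counts. Values are CPM, counts scaled to library size after TMM normalization over the 6 hearts of a comparison, listed in the order of replicates 1, 2 and 3 for controls and 4, 5 and 6 for mutants. A gene was called at a Benjamini-Hochberg adjusted p under 0.05 over all tested genes in edgeR's quasi-likelihood test. Fold changes are mutant over control, given as log2 with the standard error. At P1 the targeted gene, Lemd2, measured 27.6, 28.2 and 28.2 CPM in floxed mice against 7.599, 14.7 and 12.5 in cKO mice, a log2 fold change of -1.27 ± 0.22 (adjusted p = 0.0142). In adults it was at 28.2, 30.7 and 29.7 CPM in WT and 22.8, 22.5 and 22.1 in KI/KI hearts (-0.39 ± 0.06, adjusted p = 0.181). The summed Y-linked transcripts of cKO replicate 4 were at 0.0921 CPM and those of the 5 other P1 hearts at 245 to 368, so that mouse differed in sex from the rest.

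In cKO hearts at P1 the p53 targets did not move together. All 7 MAPK or serum targets rose by more than 2-fold, led by Cdkn1a at 3.32-fold. For 5 of the 23 damage-led targets the cKO hearts lay above all floxed hearts, beside 20.5% of tested genes. For 2 they lay below, beside 19.3%, and the groups overlapped for the others, among them Mdm2 and Ccng1. Of 34 genes, 12 were called higher, beside 9.32% of the 15317 tested genes, and 1 was called lower, beside 7.57%. The 12 were the 7 MAPK or serum targets, Cd80 and 4 of the 23 damage-led targets, Zmat3, Phlda3, Bax and Aen. With a fold change above 2 as well there were 8 higher, beside 2.85%, and 0 lower, beside 1.78%. The median log2 fold change was 1.43 over the MAPK or serum targets, -0.02 over the damage-led targets and -0.00427 over all tested genes, the classes having been drawn with results of these hearts in view.

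The count at P1 depended on single hearts. It was 13 with all hearts, beside 16.9% of tested genes in either direction. It fell to 4 without floxed replicate 1, beside 1.03%, to 8 without floxed replicate 2, beside 4.3%, and to 8 without cKO replicate 5, beside 3.48%. The fall was thus shared with the tested genes as a whole. The count lay between 11 and 14 without any other heart. The 4 left without floxed replicate 1 were Cdkn1a, Btg2, Plk2 and Ier5, which were called under every alternative. DESeq2 called 13 members higher, beside 13.2% of genes, and 3 lower, beside 10.7%. Its calls beyond those of edgeR were Tnfrsf10b, higher, and Sesn1 and Rrm2b, lower.

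**Figure D1:**
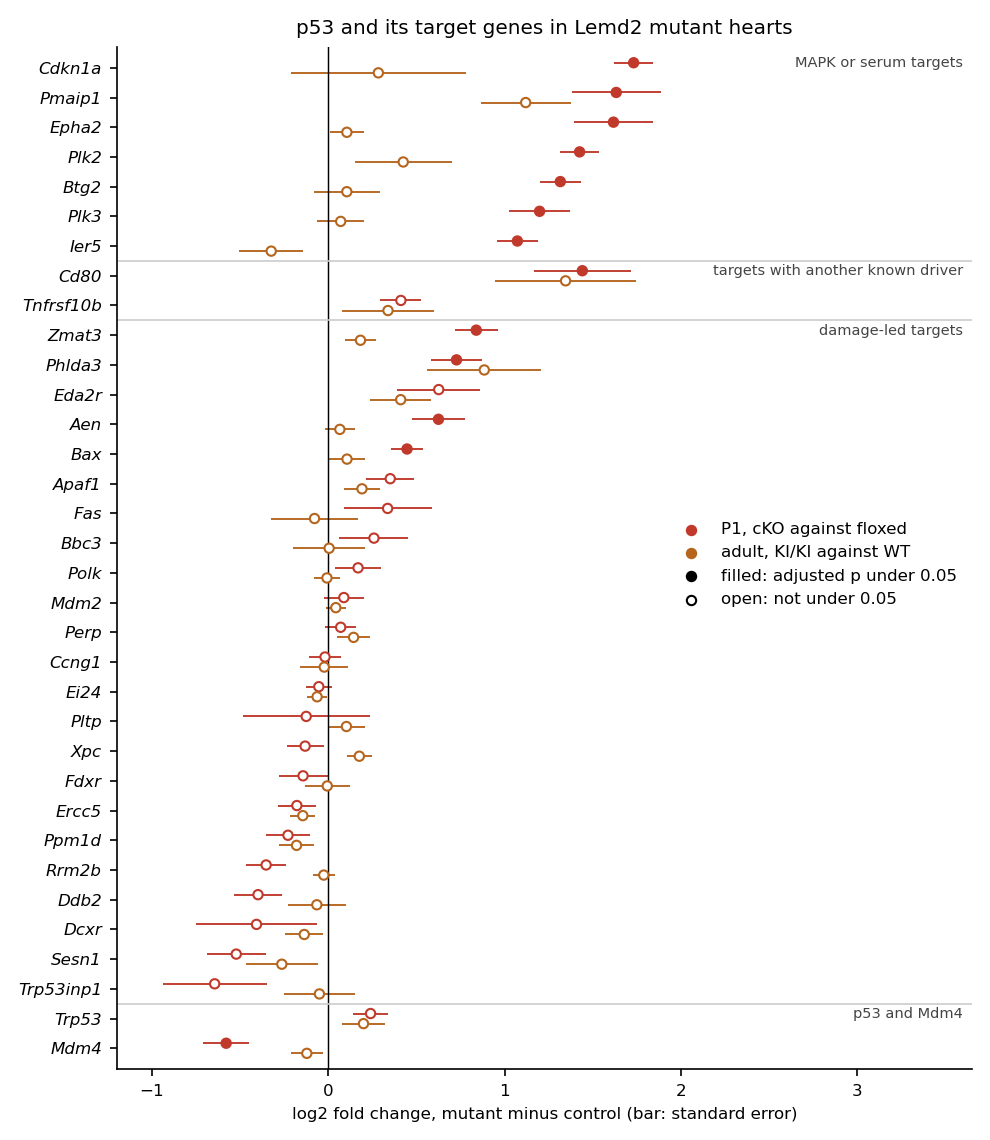
Log2 fold change of each of the 34 genes (horizontal axis, mutant minus control, bars are standard errors) in cKO against floxed hearts at P1 and in KI/KI against WT hearts in adults, grouped by class. Filled points passed an adjusted p of 0.05 in edgeR's test, which 12 genes did above 0 and 1 below 0 at P1 and none did in adults.

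Of 4 genes, p53 and its inhibitors, edgeR called 1 lower, Mdm4, beside 7.57% of tested genes, and 0 higher, beside 9.32%. Trp53 measured 38.4, 35.8 and 38.1 CPM in the floxed group and 41.3, 41.8 and 49.5 in the cKO group, a log2 fold change of 0.24 ± 0.10 (adjusted p = 0.131). The cKO hearts lay above the floxed hearts, cKO replicate 6 furthest, but the difference did not pass the test. Mdm2, both the main inhibitor of p53 and its target, was at 85.4, 97.0 and 80.9 CPM in floxed and 105, 91.6 and 83.0 in cKO hearts (0.09 ± 0.11, adjusted p = 0.611), with overlapping groups. Mdm4 was lower, at 40.6, 39.2 and 41.8 CPM in floxed and 29.8, 29.5 and 22.0 in cKO hearts (-0.58 ± 0.13, adjusted p = 0.0280). Every cKO heart lay below every floxed heart for Mdm4, and replicate 6 was lowest. Its adjusted p was between 0.0681 and 0.111 when floxed replicate 1, 2 or 3 or cKO replicate 5 was left out. Ppm1d, the phosphatase WIP1 that switches p53 off again, had a log2 fold change of -0.23 ± 0.12 (adjusted p = 0.235).

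Of 6 genes of cell cycle and growth arrest, edgeR called 5 higher, beside 9.32% of tested genes. Cdkn1a, which encodes the cyclin-dependent kinase inhibitor p21 and carries the p53 half-sites shown above, was at 20.7, 24.6 and 20.8 CPM in floxed and 80.0, 72.3 and 67.4 in cKO hearts. Every cKO heart lay above every floxed heart, with a log2 fold change of 1.73 ± 0.11 (adjusted p = 0.00481). Btg2, an antiproliferative cofactor of mRNA deadenylation, went from 37.7, 31.7 and 36.2 to 98.1, 87.3 and 77.5 CPM (1.32 ± 0.12, adjusted p = 0.00481). The polo-like kinase Plk2, which acts in centriole duplication and stress responses, went from 97.9, 113 and 109 to 319, 288 and 251 CPM (1.43 ± 0.11, adjusted p = 0.00481). For both genes the groups were far apart, and the spread within each group was small against the gap. The related stress kinase Plk3 went from 3.31, 4.09 and 4.46 to 10.02, 9.44 and 7.76 CPM (1.20 ± 0.17, adjusted p = 0.00917), with no overlap. Without floxed replicate 1 the adjusted p of Plk3 was 0.05725. On 3.3% of its exon bases Plk3 shares sequence positions with Tctex1d4 on the other strand. Zmat3, an RNA-binding tumor suppressor, was the damage-led gene with the largest change, from 29.8, 27.6 and 36.1 to 56.7, 59.2 and 51.5 CPM (0.84 ± 0.12, adjusted p = 0.00887), and its groups did not overlap. Its adjusted p was 0.0643 without floxed replicate 1. Ccng1, which encodes cyclin G1, was at 518, 553 and 569 CPM in floxed and 588, 535 and 497 in cKO hearts (-0.02 ± 0.09, adjusted p = 0.904), with overlapping groups.

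**Figure D2:**
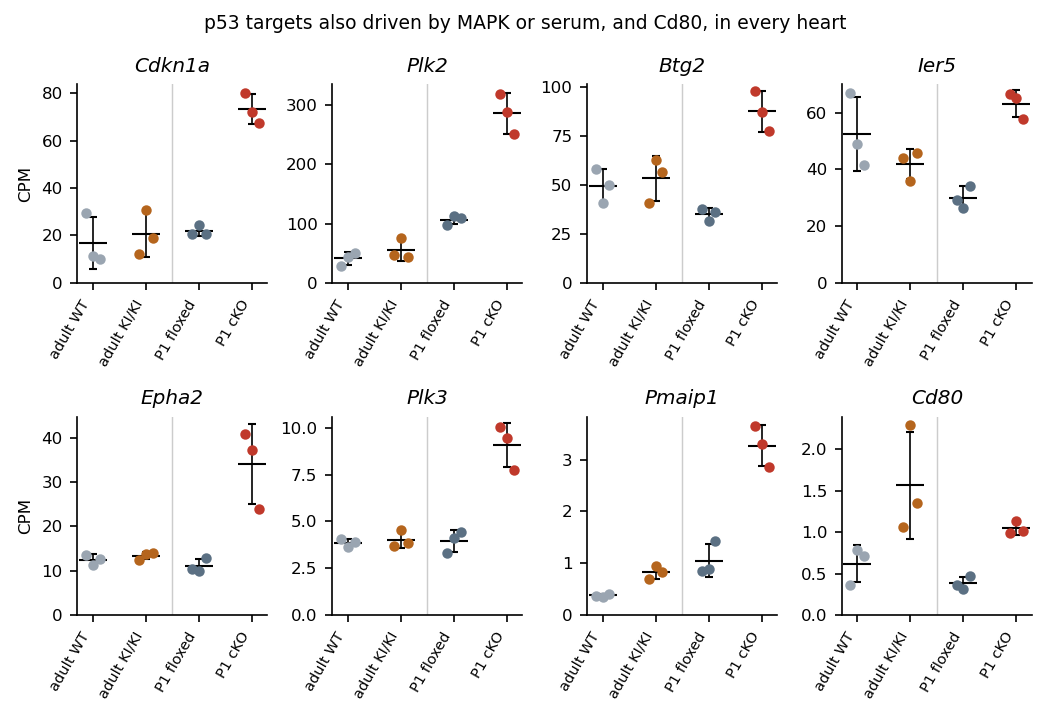
CPM (vertical axes, from 0) of the 7 MAPK or serum targets and Cd80 in every heart, normalized separately for adults and P1; points are mice, bars the mean and SD of 3. At P1 all 3 cKO hearts lie above all 3 floxed hearts in each panel, and in adults the groups overlap except for Pmaip1 and Cd80.

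Of 9 genes grouped under apoptosis, edgeR called 4 higher, beside 9.32% of tested genes, and 7 had log2 fold changes above 0. Pmaip1, which encodes the BH3-only protein NOXA, went from 0.846, 0.882 and 1.42 to 3.64, 3.31 and 2.86 CPM (1.63 ± 0.25, adjusted p = 0.0104). Its adjusted p was 0.0672 without floxed replicate 1. Bax, the pore-forming effector, went from 19.3, 20.2 and 21.3 to 28.5, 28.4 and 26.0 CPM (0.45 ± 0.09, adjusted p = 0.0218). Neither gene's groups overlapped, and the rise of Bax was by 1.36-fold only. Phlda3, which restrains AKT signaling, went from 21.8, 21.8 and 17.6 to 38.5, 34.5 and 28.3 CPM (0.73 ± 0.15, adjusted p = 0.0211). Aen, an exonuclease of apoptotic DNA, went from 15.6, 13.2 and 19.7 to 24.5, 24.8 and 25.7 CPM (0.63 ± 0.15, adjusted p = 0.0345). Every cKO heart exceeded every floxed heart for both, but Bax, Phlda3 and Aen lost their calls without floxed replicate 1, floxed replicate 2 or cKO replicate 5, with adjusted p between 0.0647 and 0.147. Without cKO replicate 4 the adjusted p was 0.0509 for Bax and 0.0603 for Aen, and without floxed replicate 3 it was 0.0509 for Phlda3. With all 12 libraries in 1 fit Phlda3 was also not called (adjusted p = 0.0543). Bbc3, which encodes PUMA, was at 3.48, 3.06 and 2.66 CPM in floxed and 4.33, 3.40 and 3.24 in cKO hearts (0.26 ± 0.20, adjusted p = 0.378). Apaf1, the apoptosome scaffold, had 0.35 ± 0.13 (adjusted p = 0.115) with groups that did not overlap. Perp, Ei24 and Trp53inp1 had log2 fold changes of 0.07, -0.05 and -0.64, none of them called.

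Among 5 genes of death receptors and the cell surface, edgeR called 2 higher, beside 9.32% of tested genes. All 5 had log2 fold changes above 0. Epha2, an ephrin receptor tyrosine kinase with a CRE in its promoter, went from 10.4, 9.88 and 12.99 to 40.9, 37.3 and 23.8 CPM (1.62 ± 0.22, adjusted p = 0.00825). The groups were apart, and cKO replicate 6 was lowest of the cKO hearts. Without floxed replicate 1 the adjusted p of Epha2 was 0.0581. Cd80, a costimulatory ligand of antigen-presenting cells, went from 0.359, 0.319 and 0.474 to 0.990, 1.14 and 1.02 CPM (1.44 ± 0.28, adjusted p = 0.0186). Its counts were low, from 13 to 49 per library at P1, and its adjusted p was 0.0714 to 0.0992 without floxed replicate 1, floxed replicate 2 or cKO replicate 5. Tnfrsf10b, the TRAIL receptor, narrowly missed the threshold at 0.41 ± 0.12 (adjusted p = 0.0528), with every cKO heart above every floxed heart. The receptors Eda2r and Fas had log2 fold changes of 0.63 ± 0.24 (adjusted p = 0.111) and 0.34 ± 0.25 (adjusted p = 0.370), each with overlapping groups.

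None of the 5 DNA repair genes was called by edgeR, beside 9.32% of tested genes called higher and 7.57% called lower. Rrm2b, which supplies deoxynucleotides for repair, and Ddb2, which recognizes ultraviolet lesions, were lower in every cKO heart than in any floxed heart. Their log2 fold changes were -0.35 ± 0.11 (adjusted p = 0.0770) and -0.40 ± 0.14 (adjusted p = 0.0913). DESeq2 called Rrm2b (adjusted p = 0.0458). Ddb2 shares 23.8% of its exon bases with Acp2 on the other strand, and since the strand setting of the counting was not given, their reads may be mixed. The nucleotide excision factors Xpc and Ercc5 and the translesion polymerase Polk had -0.13, -0.18 and 0.17. Over all members the groups did not overlap for 15 genes in the direction of higher values, beside 20.5% of tested genes, and for 3 in the direction of lower values, beside 19.3%.

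Of 5 genes of stress, redox and metabolism, edgeR called 1 higher, Ier5, beside 9.32% of tested genes, and 0 lower, beside 7.57%. This immediate early regulator of heat shock factor went from 29.2, 26.5 and 34.3 to 66.5, 65.2 and 57.7 CPM (1.07 ± 0.12, adjusted p = 0.00606), with no overlap between groups. Sesn1, an inhibitor of mTORC1 that p53 is known to raise, had a value in the other direction, 98.1, 105 and 71.5 CPM in floxed and 74.3, 56.9 and 60.2 in cKO hearts (-0.52 ± 0.17, adjusted p = 0.0750). Floxed replicate 3 lay within the cKO range, and DESeq2 called the gene (adjusted p = 0.0221). The mitochondrial reductase Fdxr, the xylulose reductase Dcxr and the phospholipid transfer protein Pltp had -0.14, -0.41 and -0.12, none of them called. Pltp shares 19.3% of its exon bases with Ctsa on the other strand.

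**Figure D3:**
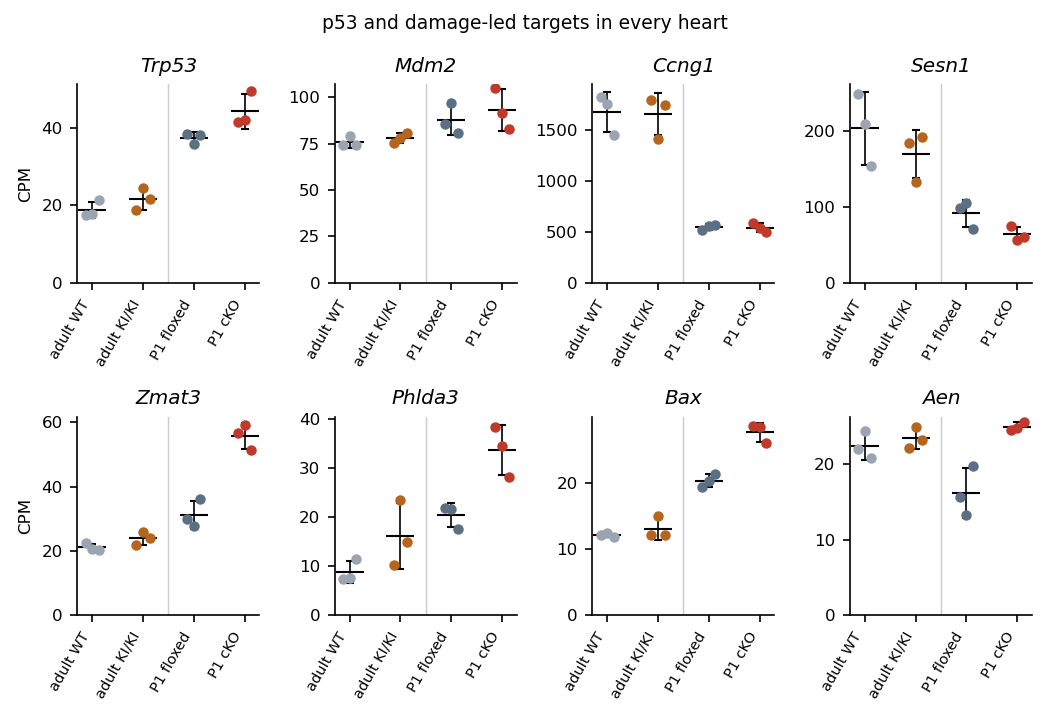
CPM (vertical axes, from 0) of Trp53 and 7 damage-led targets in every heart, normalized separately for adults and P1; points are mice, bars the mean and SD of 3. Mdm2, Ccng1 and Sesn1 overlap between floxed and cKO hearts, while Zmat3, Phlda3, Bax and Aen are higher in all 3 cKO hearts.

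The same cKO heart was highest for each of the 7 MAPK or serum targets, replicate 4, and the same heart was lowest, replicate 6. Over all 34 members replicate 4 was the highest cKO heart for 22 and replicate 6 the lowest for 22. Over the 23 damage-led targets the counts were 13 and 14. The mean level of the MAPK or serum targets, as centered log2(CPM + 0.5), was -0.76, -0.72 and -0.54 in the floxed group and 0.83, 0.72 and 0.47 in the cKO group. For the damage-led targets it was 0.04, 0.02 and -0.14 in floxed and 0.16, -0.04 and -0.03 in cKO hearts. The former groups were well apart and the latter overlapped. Without cKO replicate 4, the mouse of the other sex, the medians over genes were 1.34 and -0.032. With any one heart left out they ran from 1.34 to 1.501 and from -0.068 to 0.080. With the Y-linked level as a covariate 9 members were called higher, beside 5.97% of tested genes, and 1 lower, beside 4.69%, and Bax, Aen and Phlda3 were not (adjusted p = 0.0522 to 0.068). The classes also differ in gene structure. The median span was 5.8 kb and the median exon number 3 for MAPK or serum targets, against 21.9 kb and 9 for damage-led targets.

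In adult KI/KI hearts no member was called by edgeR's test, beside 0% of the 14592 tested genes in either direction. At an unadjusted p under 0.05 there were 4 higher, Pmaip1, Cd80, Phlda3 and Xpc, beside 8.92% of tested genes, and 0 lower, beside 7.28%. DESeq2 called 0 of the 34, beside 2.1% of genes higher and 1.46% lower. In 3 genes the KI/KI hearts lay above all WT hearts, beside 11.5% of tested genes, and in 0 they lay below, beside 11%. The median log2 fold change was 0.11 over MAPK or serum targets, -0.01 over damage-led targets and 0.00230 over all tested genes. The former was -0.027 without KI/KI replicate 5, 0.034 without WT replicate 2, 0.222 without WT replicate 1 and 0.265 without KI/KI replicate 4, so its sign and size rested on single hearts.

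Pmaip1 was at 0.368, 0.351 and 0.417 CPM in WT and 0.688, 0.953 and 0.826 in KI/KI hearts (1.12 ± 0.25, adjusted p = 0.200). Cd80 was at 0.368, 0.782 and 0.711 CPM in WT and 1.06, 2.30 and 1.35 in KI/KI hearts (1.35 ± 0.40, adjusted p = 0.240). For both the KI/KI hearts were above the WT hearts, and replicate 5 was highest. The damage recognition gene Xpc was at 21.4, 24.4 and 24.2 CPM in WT and 25.7, 27.3 and 26.1 in KI/KI hearts, a small difference of 0.18 ± 0.07 (adjusted p = 0.306). Phlda3 had 0.88 ± 0.32 (adjusted p = 0.278) with overlapping groups.

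Cdkn1a varied widely within both adult groups, at 29.7, 11.4 and 9.95 CPM in WT and 12.1, 30.9 and 18.7 in KI/KI hearts (0.28 ± 0.50, adjusted p = 0.793). WT replicate 1 and KI/KI replicate 5 were high, and the sign depended on replicate 5, without which it was -0.13. Mdm2 was at 74.2, 79.3 and 74.1 CPM in WT and 75.3, 78.2 and 81.0 in KI/KI hearts (0.04 ± 0.06, adjusted p = 0.721). Trp53 was at 17.5, 17.7 and 21.3 CPM in WT and 18.7, 24.5 and 21.6 in KI/KI hearts (0.20 ± 0.12, adjusted p = 0.436). Neither set of groups separated. Of the other MAPK or serum targets Plk2 had 0.43, Btg2 0.11, Epha2 0.11, Plk3 0.07 and Ier5 -0.32 on the log2 scale, all with overlapping groups. KI/KI replicate 5 was the highest KI/KI heart for 18 of the 34 genes and replicate 4 the lowest for 18. The log2 fold changes of the damage-led targets other than Phlda3 and Xpc ran from -0.26 for Sesn1 to 0.41 for Eda2r.

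Whether a gene changed differently in the models was tested as the log2 fold change at P1 minus that in adults, in a fit of all 12 libraries. Of 34 members 4 were called, all with the larger rise at P1, beside 1.17% of 15729 tested genes, and 0 in the other direction, beside 1.27%. They were Epha2 (1.52 ± 0.25, adjusted p = 0.0192), Ier5 (1.40 ± 0.24, adjusted p = 0.0192), Btg2 (1.22 ± 0.23, adjusted p = 0.0293) and Plk3 (1.13 ± 0.21, adjusted p = 0.0296). All belong to the MAPK or serum class. Zmat3 lay at the threshold (0.66 ± 0.15, adjusted p = 0.05002). Cdkn1a differed by 1.46 ± 0.55 (adjusted p = 0.168), and the wide spread among adult hearts enters that error. For Pmaip1 (0.52 ± 0.40, adjusted p = 0.504) and Cd80 (0.10 ± 0.51, adjusted p = 0.938) the models were not shown to differ. The count was 0 without floxed replicate 1, floxed replicate 2 or cKO replicate 5, 1 without WT replicate 1 or KI/KI replicate 6, and 2 without WT replicate 2 or WT replicate 3. Over all genes the count fell in the same fits, from 383 to between 51 and 183.

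Control hearts of the 2 ages also differed in these genes, and no test was made since age was not varied within a genotype. With all 12 libraries normalized together, floxed hearts lay above WT hearts for 12 members, beside 36.1% of tested genes, and below for 14, beside 33.9%, and the groups overlapped for 8. Separate control groups were thus common among all genes. Ccng1 was at 2062, 1982 and 1613 CPM in WT and 459, 493 and 509.6 in floxed hearts, and Sesn1 at 282, 236 and 171 and 86.8, 93.8 and 64.0. Plk2 went the other way, at 32.6, 50.1 and 56.4 CPM in WT and 86.6, 101 and 97.4 in floxed hearts. Cdkn1a overlapped, at 33.6, 12.9 and 11.1 and 18.3, 21.9 and 18.6.

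Genes around p53 were read beside its targets. Of 23 tested regulators and cofactors of p53, edgeR called 1 higher at P1 and 1 lower, each a smaller share than among all tested genes (9.32% and 7.57%). Their median log2 fold change was -0.14. In 2 of them the cKO hearts lay above all floxed hearts, beside 20.5% of tested genes, and in 9 below, beside 19.3%. DESeq2 called 2 higher, beside 13.2% of genes, and 3 lower, beside 10.7%. Rpl11, a ribosomal protein that binds MDM2, went from 154, 168 and 165 to 225, 213 and 188 CPM (0.36 ± 0.09, adjusted p = 0.0377). Rbm38, an RNA-binding protein induced by p53, went from 69.3, 63.8 and 75.7 to 52.6, 55.2 and 54.5 CPM (-0.36 ± 0.09, adjusted p = 0.0329). Of 33 tested further p53 targets, 2 were called higher and 6 lower, with a median of -0.01. The share called higher was below that of all tested genes and the share called lower above it. Those with the smallest p were all lower, the ubiquitin ligase subunit Fbxw7 (-0.74 ± 0.09, adjusted p = 0.00716), the lipid phosphatase Lpin1 (-1.18 ± 0.17, adjusted p = 0.00869) and muscle creatine kinase Ckm (-0.65 ± 0.09, adjusted p = 0.00870). Ckm is also a marker of striated muscle. Notch1 was called higher (0.43 ± 0.10, adjusted p = 0.0298). In adults edgeR called no gene of either list, as it called none of all tested genes. DESeq2 called 1 further target lower, beside 1.46% of genes, 9030617O03Rik (-0.63, adjusted p = 0.0366).

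Immediate early and feedback genes of MAPK and serum signaling, none of them among the 34, were also read at P1. Of 21 tested, edgeR called 17 higher, beside 9.32% of tested genes. All 21 had log2 fold changes above 0, with a median of 1.15. The zinc finger factors Egr1 (1.81 ± 0.16, adjusted p = 0.00481), Egr3 (2.55 ± 0.23, adjusted p = 0.00481) and Egr2 (2.65 ± 0.24, adjusted p = 0.00481) and the ETS factor Etv4 (2.06 ± 0.20, adjusted p = 0.00502) had the smallest p. Egr1 was at 31.6, 29.3 and 43.6 CPM in floxed and 133, 118 and 115 in cKO hearts. In adults edgeR called 0 of 21, as of all tested genes, with a median of 0.37. At an unadjusted p under 0.05 there were 8 higher, beside 8.92% of tested genes, and 1 lower, beside 7.28%. DESeq2 called 5 higher in adults, beside 2.1% of genes, Egr2, Egr3, Spred1, Etv5 and Phlda1 (adjusted p = 0.0121 to 0.0463). KI/KI replicate 4 was the lowest KI/KI heart for 19 of them. The mean level of the list was -0.35, -0.25 and 0.02 in WT and -0.23, 0.52 and 0.31 in KI/KI hearts. Some targets are shared with the integrated stress response, which ATF4 drives. Of 10 such genes edgeR called 7 higher at P1, beside 9.32% of tested genes, and 9 had log2 fold changes above 0, with a median of 0.91. Those with the smallest p were Psat1 (1.10 ± 0.09, adjusted p = 0.00481), Atf3 (2.29 ± 0.25, adjusted p = 0.00582), Ppp1r15a (1.10 ± 0.17, adjusted p = 0.0101) and Atf4 itself (0.64 ± 0.10, adjusted p = 0.0108).

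p21 is known to repress late cell cycle genes through the DREAM complex, and these were higher beside the higher Cdkn1a. Of 14 such genes edgeR called 9 higher at P1, beside 9.32% of tested genes, and 0 lower, beside 7.57%. The median log2 fold change of the 14 was 1.29. Ccnb1, which encodes cyclin B1, went from 14.99, 16.8 and 19.4 to 53.6, 54.1 and 96.1 CPM (1.99 ± 0.25, adjusted p = 0.00703). Cenpa (1.26 ± 0.23, adjusted p = 0.0154), Cdc20 (1.58 ± 0.29, adjusted p = 0.0162) and Ccnb2 (1.38 ± 0.26, adjusted p = 0.0171) followed. cKO replicate 6, the lowest cKO heart for the MAPK or serum targets, was the highest for all 14 of these genes, while replicate 4 was the lowest for 12. In adults neither edgeR nor DESeq2 called any of 13. By DESeq2 2.1% of all genes were higher and 1.46% lower. At an unadjusted p under 0.05 in edgeR 1 of the 13 was higher, beside 8.92% of tested genes. The highest hearts were WT replicate 1 for 13 and KI/KI replicate 5 for 12. All 13 had adult log2 fold changes above 0, with a median of 0.50. Their mean level overlapped, at 0.18, -0.29 and -0.32 in WT and -0.18, 0.69 and -0.09 in KI/KI hearts.

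**Figure D4:**
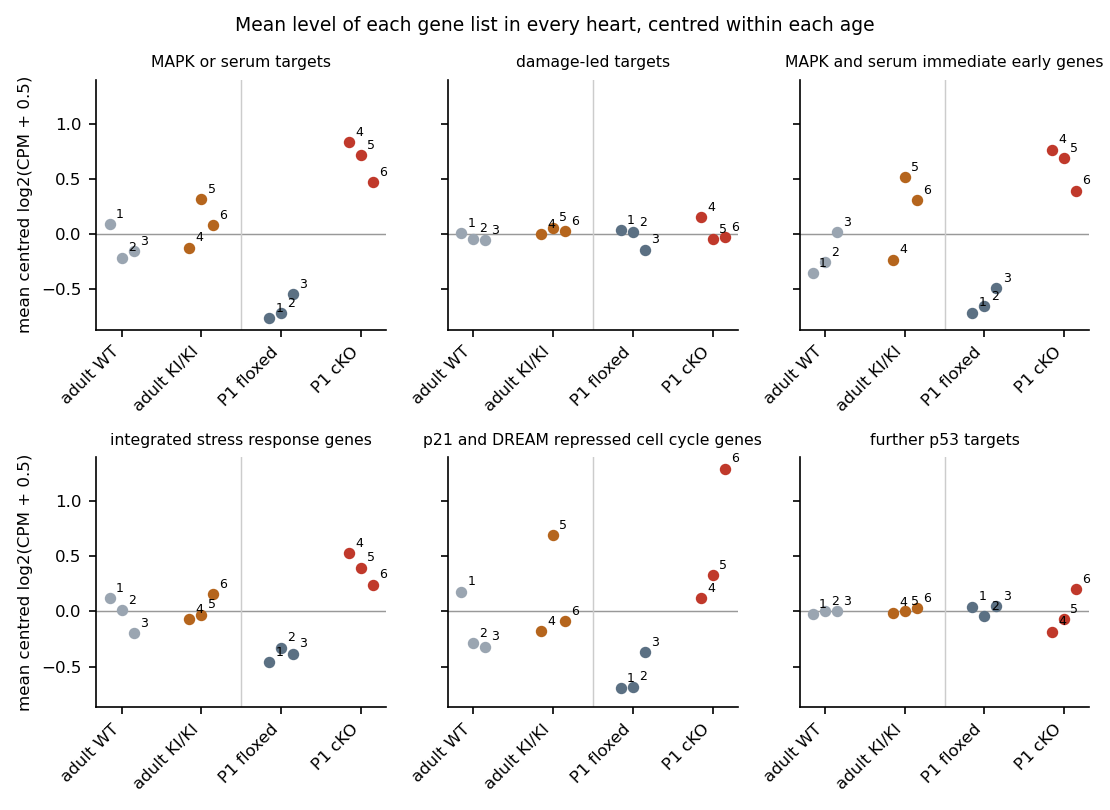
Mean over genes of log2(CPM + 0.5), centered on the 6 hearts of each age (vertical axis), for 6 gene lists; points are hearts, numbered by replicate. At P1 the floxed and cKO hearts separate for the MAPK or serum targets, the immediate early genes, the integrated stress response genes and the cell cycle genes, and overlap for the damage-led and further p53 targets.

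Whole hearts mix cell types, and fewer cells of a type cannot be told apart from less RNA per cell. Beside the P1 marker counts given here, edgeR called 9.32% of the 15317 tested genes higher and 7.57% lower. Of those genes 2828 were higher at an unadjusted p under 0.05. CM markers were high in every library, and their summed level was 40559 to 46455 CPM in floxed and 37549.8 to 39568 in cKO hearts, with 1 of 7 called higher and 2 lower. Fibroblast markers summed to 4441 to 4835 and 6339.6 to 6901 CPM, with 3 of 7 called higher. Macrophage markers summed to 125 to 156 and 123 to 282 CPM, with 3 of 6 called higher, and endothelial markers to 1154 to 1228 and 1358 to 1668, with 2 of 6. For smooth muscle and pericytes 2 of 5 were called higher and 1 lower. Proliferating cell markers summed to 338 to 456 and 507 to 1260.1 CPM. All 5 had log2 fold changes above 0 with a median of 1.14 and an unadjusted p under 0.05. In 4 the cKO hearts lay above all floxed hearts, beside 20.5% of tested genes. None of the 5 passed edgeR's adjusted test (adjusted p = 0.0514 to 0.136), and DESeq2 called all 5 higher, beside 13.2% of genes. Dendritic cell markers, of interest for Cd80, summed to 10.4 to 13.5 and 13.02 to 17.2 CPM, with 0 of 3 tested called by edgeR or DESeq2 and 2 higher at an unadjusted p under 0.05, and Flt3, Cd209a and Ccr7 too low to test. Of 5 tested genes listed for skeletal muscle, some of which heart muscle also expresses, edgeR called Acta1 and Myh1 higher and Ckm lower. Their mean centered log2 level was -0.45, -0.27 and -0.26 in the floxed group and 0.46, 0.52 and -0.00055 in the cKO group, and their summed level 1034 to 1205 and 752 to 923 CPM. Among lymphocyte markers 1 of 4 tested was called higher, Cd4. The erythroid genes Hba-a1 and Hbb-bs were listed at 0 in every library. In adults edgeR called no marker, as it called none of all tested genes. DESeq2, beside 2.1% of genes called higher, called Emcn (endothelial), Cd68 (macrophage) and Acta1 (of the skeletal muscle list) higher (adjusted p = 1.48e-04 to 0.0452). Adult fibroblast markers summed to 1383 to 1609 CPM in WT and 1631 to 2832 in KI/KI hearts. The part of these cell types in the values of the p53 targets was not tested.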

How the data were processed

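RNA-Seq was performed by the authors on whole hearts of 12 mice, 3 per group, with 1 library per mouse, so p-values measure the spread between mice. Per the labels and the study's methods, reads were trimmed with Trim Galore, checked with Bowtie2 2.3.4.3, aligned to mm10 with STAR 2.7.2b, sorted with SAMtools 1.9 and counted per gene with HTSeq. The authors deposited whole-number counts without normalization. The strand setting of the counting is not given in the sources used here.

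Testing used edgeR 4.0.16 under R 4.3.3 (TMM, filterByExpr, robust quasi-likelihood test, Benjamini-Hochberg adjustment over all tested genes), with each comparison on its own 6 libraries. The standard error is the log2 fold change over the root of its F statistic. Alternatives were DESeq2 1.42.0, limma-voom (limma 3.58.1), RLE size factors, all 12 libraries in 1 fit, no filter on low counts, a filter of 10 counts in each library, a Y-linked covariate, a fold change above 2, other class memberships and each library left out. The members, classes and gene lists were chosen with earlier results of these data known, so no list was tested as a set. Full values are given for Trp53, Mdm2, Cdkn1a, called members and adult members with an unadjusted p under 0.05 and separate groups, and up to 4 called genes were named per other list. Of all list symbols 4 were matched through an older symbol. The 12 replicate pairs differed by more than sampling noise, with a chi-square per degree of freedom from 16.7 to 117. At these depths 3 counts, taken as the floor, correspond to at most 0.0809 CPM, which covers counting error only. Exon overlaps were taken from GENCODE M21 on GRCm38 and promoter windows from RefSeq. The study's other assays were not used here.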

Additional observations from a re-analysis of the deposited data

Results flagged for a closer look

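For 4 genes, all of them MAPK or serum targets, the change in cKO hearts at P1 differed from the change in adult KI/KI hearts by the interaction test of edgeR with Benjamini-Hochberg adjustment. As log2 fold change at P1 minus that in adults, Btg2 differed by 1.22 (adjusted p = 0.0293), Plk3 by 1.13 (adjusted p = 0.0296), Ier5 by 1.40 (adjusted p = 0.0192) and Epha2 by 1.52 (adjusted p = 0.0192). Ier5 had the only negative adult value among them, -0.32. With one heart left out at a time the adjusted p of each passed 0.05 in some cases, up to 0.0838 for Plk3, while the differences stayed between 1.02 and 1.71. Age and allele changed together, and their parts were not tested.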

How the results depend on the processing

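No paired analysis was possible because the groups compared share no replicate number, WT and floxed mice being numbered 1 to 3 and KI/KI and cKO mice 4 to 6. Among single genes, 280 values under the alternatives kept their direction and side of the threshold, 50 kept direction only and 3 reversed. The reversed values were adult Cdkn1a without KI/KI replicate 5 (-0.13; from -0.13 to 0.95 with one heart left out), P1 Mdm2 with the Y-linked covariate (-0.019) and P1 Mdm2 without cKO replicate 4 (-0.0037; from there to 0.16 with one heart left out). The adult count of called genes, 0 in edgeR, was 518 with DESeq2, 48 with all 12 libraries in 1 fit, 1 with the Y-linked covariate and 0 to 56 with one heart left out, and no member was called under any of them. The P1 count of 2587 genes was 4113 with all 12 libraries, 1634 with the covariate, 710 with a fold change above 2 and 160 to 3463 with one heart left out. Of the 13 members called at P1, 8 also passed a fold change above 2, and leaving out one heart gave 4 to 14. The difference between models was called for 7 members with DESeq2 against 4 in edgeR, and for 0 to 6 with one heart left out. The adult damage-led median ran from -0.0023 to 0.030 with one heart left out. The P1 MAPK or serum median was 1.26 with only Btg2, Plk2, Plk3 and Ier5 in the class. With no mismatch allowed the p53 half-site pair was present for 1 member. At 3 hearts per group the low-count genes, Cd80 and Pmaip1 above all, are the least precise, and the causes of these shifts were not tested.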
